A study of Mus musculus with 6 samples.

Results

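The ERBB receptor genes Egfr, Erbb2, Erbb3 and Erbb4, the feedback inhibitor genes Lrig1 and Errfi1, and the sheddase genes Adam10 and Adam17 were followed after knockdown of YAP. These 8 genes were taken by symbol, and all 8 were among the 23366 genes listed. RNA was sequenced from SC4 cells, a mouse Schwann cell line grown out of a schwannoma without Nf2, whose product merlin is a tumour suppressor. One group received a YAP siRNA pool and the other a control siRNA, with RNA taken after 48 hours and 3 libraries per group. Loss of Nf2 was common to both groups, and a single cell line was used. The series title places COX2 and EGFR signalling downstream of YAP, a co-activator of TEAD transcription factors that the Hippo pathway restrains.

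ERBB receptors are tyrosine kinases that pair up when a ligand of the EGF family binds. EGFR binds ligands such as TGF-alpha, amphiregulin and HB-EGF. ERBB2 has no ligand of its own and serves as a partner, ERBB3 binds neuregulins but has a weak kinase, and ERBB4 binds neuregulins and has an active kinase. In Schwann cells, neuregulin signalling through ERBB2 and ERBB3 is required for development and survival. Most ligands are made as membrane-bound precursors that the metalloproteinases ADAM10 and ADAM17 cut free. LRIG1, a transmembrane protein, promotes degradation of ERBB receptors. ERRFI1, also called MIG6, binds the kinase domain of EGFR and blocks it.

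The libraries held between 18025132 and 60078880 reads in genes, and 1 read equalled 0.461 to 1.52 normalized counts, the deposited unit (counts scaled by a size factor for each library). Yap1, the siRNA target, had normalized counts of 936, 571 and 475 in the YAP siRNA libraries, against 4749.6, 5732 and 4751 in the control libraries. Replicate 1 stood apart in both groups: the first principal component, with 63.5% of the variance, separated it from replicates 2 and 3. The melanocyte gene Dct had 279, 0 and 12.1 normalized counts in YAP siRNA replicates 1, 2 and 3, against 155, 0 and 3.69 in control replicates 1, 2 and 3. Summed over 4 melanocyte markers, the level ranged from 9.08 to 512 in YAP siRNA libraries and from 28.8 to 300.5 in control libraries. Of the Schwann cell markers, Sox10 and S100b, which mark the lineage, were close to 0: Sox10 averaged 7.05 ± 7.63 after YAP siRNA and 1.67 ± 2.51 in the controls (SD, n = 3 each). Schwann cell markers with high values included Ncam1, Ngfr, Pmp22, Mbp and Egr2, of which several are not restricted to this lineage. The 6 fibroblast markers summed to between 125267 and 246423 after YAP siRNA and to between 144831 and 349022 in the controls. Of the 5 of them that were tested, 0 were higher and 3 lower in the blocked limma fit described below. These counts stood beside 8.32% of all genes higher and 8.96% lower. Col1a1, Col3a1 and Dcn were lower, with log2 fold changes of −0.46, −0.31 and −0.99 (limma adjusted p = 0.0260, 0.0366 and 0.0361). Pdgfra and Thy1 went the other way, at 0.18 and 0.84, and did not pass (limma adjusted p = 0.169 and 0.170). In the same fit, of 9 Schwann cell markers tested, 1 was higher, Pmp22 (1.003), and 1 lower, Ngfr (−0.80). Of 2 neuronal markers tested, Tubb3 was higher (1.73) and Syp (0.57) did not pass. Of 4 macrophage markers tested, Csf1r was lower (−1.05), while Ptprc (1.03), Aif1 (0.21) and Cd68 (−0.031) did not pass. Over all genes tested, 17.3% were called in either direction. The part of these markers in the results on the 8 genes was not tested. The 4 neuronal markers summed to between 192 and 308 after YAP siRNA and to between 50.7 and 141 in the controls, mostly from Tubb3, with Rbfox3 at or near 0. The macrophage markers summed to at most 341 and the endothelial markers to at most 271 in any library.

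Erbb3 was higher after YAP siRNA, Lrig1 and Errfi1 were lower, and Egfr, Erbb2, Adam10 and Adam17 had values that overlapped between the groups. Each gene was tested with limma on log2(value + 1) among 12820 genes with a mean of at least 10. Without pairing, 0 of the 7 members tested passed an adjusted p of 0.05, and 0% of all genes did. Yap1, the siRNA target, did not pass there either (limma adjusted p = 0.118). Not passing that fit thus does not by itself show a lack of change. At an unadjusted p under 0.05, 3 of the 7 stood beside 12.2% of all genes. In edgeR without pairing, 0 genes passed an adjusted p of 0.05. The replicate numbers were treated as pairing the libraries (correlations given with the processing), and with the number as a block 3 of the 7 were called, beside 17.3% of all genes. Of these 1 was higher, beside 8.32% of all genes, and 2 were lower, beside 8.96%. DESeq2 without the block called 2 of the 7, beside 5.63% of all genes. In 3 of the 7, the groups did not overlap, as in 19.0% of all genes: 1 with every YAP siRNA library above the controls, as in 9.47% of all genes, and 2 with every one below, as in 9.49%. The words rose and fell are used below for genes that passed with the block. The median log2 fold change of the 7 was −0.087, beside 0.0094 for all genes tested. Bulk RNA cannot tell fewer cells of one kind from less RNA per cell.

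**Figure D1:**
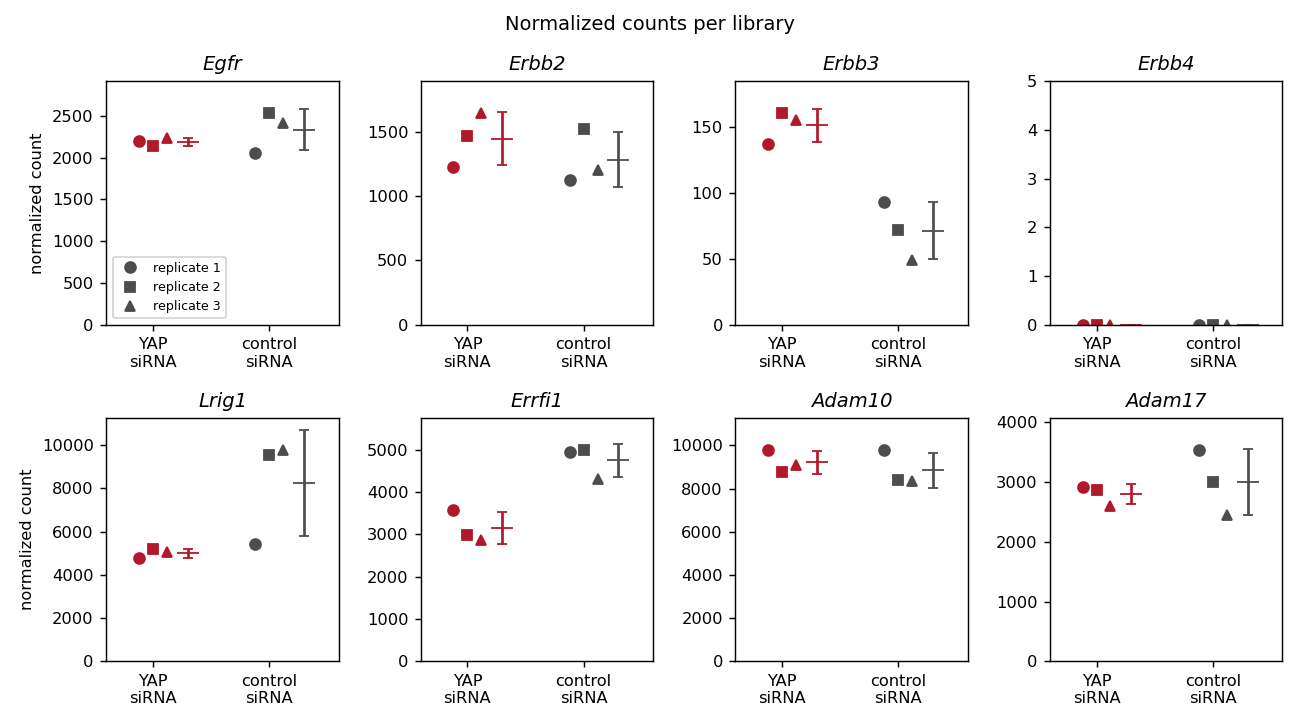
Normalized counts of the 8 genes in each library (circle, square and triangle for replicates 1, 2 and 3), with the mean and SD beside them. Erbb3 lies between 137 and 160 after YAP siRNA and between 49.3 and 92.6 in the controls, Lrig1 and Errfi1 are below every control, and Erbb4 is at 0 throughout.

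Egfr, the receptor named in the title, had normalized counts of 2196, 2142 and 2230.4 in YAP siRNA replicates 1, 2 and 3, against 2058, 2537 and 2416 in control replicates 1, 2 and 3. The YAP siRNA values lay inside the range of the controls, with replicate 1 of the control group below them and the other two above. The mean was 2189.7 ± 44.3 after YAP siRNA and 2337 ± 249 in the controls (SD, n = 3 each). The log2 fold change was −0.088, and the blocked 95% interval ran from −0.32 to 0.15 (limma adjusted p = 0.581 with and 0.884 without the block). The two-sided exact permutation test gave p = 0.4, where 3 against 3 libraries allow no p below 0.1. Within replicate numbers 1, 2 and 3, the log2 differences were 0.094, −0.24 and −0.12.

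Erbb2, the ligandless partner receptor, had 1229.8, 1465 and 1647 normalized counts in YAP siRNA replicates 1, 2 and 3. Its control values were 1121, 1525 and 1199 in replicates 1, 2 and 3. The groups overlapped, and the replicate numbers did not move one way, with log2 differences of 0.13, −0.057 and 0.46. The log2 fold change was 0.18, and the blocked 95% interval ran from −0.10 to 0.46 (limma adjusted p = 0.347 with and 0.798 without the block). A rise of Erbb2 by up to 0.46, or an Egfr change as low as −0.32, on the log2 scale thus lies within these intervals.

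Erbb3, the neuregulin receptor with a weak kinase, rose. It had 137, 160.5 and 155 normalized counts in YAP siRNA replicates 1, 2 and 3, against 92.6, 71.7 and 49.3 in control replicates 1, 2 and 3. Every YAP siRNA library was above every control library. These values came from 114, 159 and 103 reads after YAP siRNA and from 61, 92 and 107 reads in the controls, the fewest of the 7 genes measured. The exact 95% Poisson interval, which covers counting error only, was 113 to 165 for YAP siRNA replicate 1 and 70.8 to 119 for control replicate 1, so these overlapped. For replicate 2 it was 136 to 187 after YAP siRNA and 57.8 to 88.0 in the control, and for replicate 3 it was 127 to 188 after YAP siRNA and 40.4 to 59.6 in the control, with no overlap in either.

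The mean of Erbb3 was 151 ± 12.3 after YAP siRNA and 71.2 ± 21.6 in the controls (SD, n = 3 each), 2.12-fold higher. Its log2 fold change was 1.12 (SE 0.269, 95% interval 0.50 to 1.73 with the block), with limma adjusted p = 0.0261 with and 0.249 without the block. Among all genes tested, 4.86% had a change at least as large. DESeq2 called it also without the block (adjusted p = 0.0227), and edgeR with the block (adjusted p = 0.0179) but not without (adjusted p = 0.25). The blocked call was lost on leaving out replicate 2 of both groups (1.10, limma adjusted p = 0.174) or replicate 3 of both (0.86, limma adjusted p = 0.127), and in limma without a mean-variance trend (adjusted p = 0.101). Without replicate 1 of both groups, the log2 fold change was 1.39 (limma adjusted p = 5.4e-06 with the block). That fit has few degrees of freedom and takes its variance largely from other genes. It called 5596 of the 12820 genes, against 2216 with all libraries. The melanocyte gene Dct was highest in replicate 1 of both groups, and its part in this change was not tested.

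Erbb4, the second neuregulin receptor, was not detected. It had 0 reads in all 6 libraries, which at 3 reads allows up to 3.03 to 4.52 normalized counts per YAP siRNA library and up to 1.38 to 4.55 per control library. It did not pass the filter on low values and has no fold change.

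**Figure D2:**
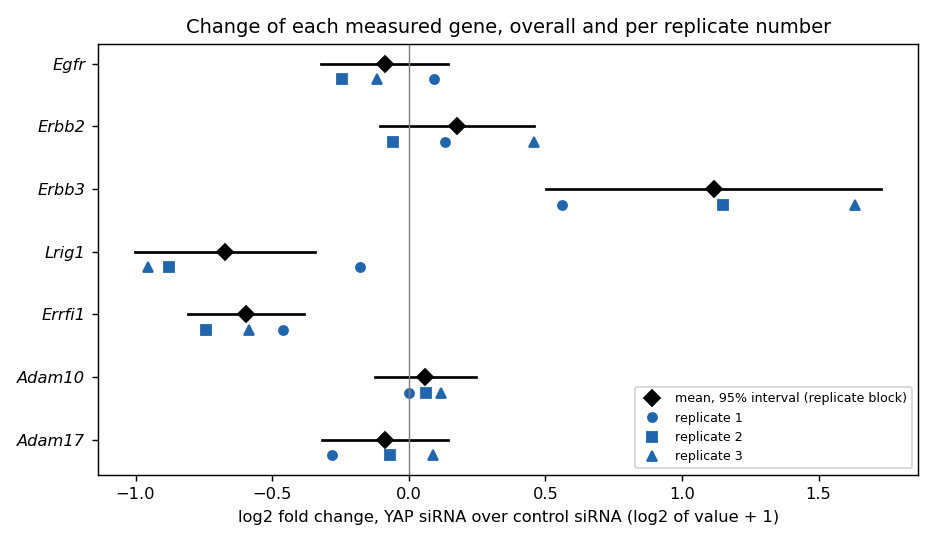
Log2 fold change of each of the 7 genes tested (diamond) with its 95% interval from limma with the replicate block (line), and the difference within each replicate number (blue symbols under it). The intervals of Erbb3 (0.50 to 1.73), Lrig1 (−1.001 to −0.34) and Errfi1 (−0.81 to −0.38) leave out 0, and the Lrig1 difference in replicate 1 is the smallest of its 3.

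Receptor levels were set side by side per kb of exon, with exon lengths from GENCODE M21. Erbb2 averaged 289 ± 41.8 normalized counts per kb after YAP siRNA and 256 ± 42.7 in the controls. Egfr averaged 199.9 ± 4.05 per kb after YAP siRNA and 213 ± 22.8 in the controls. Erbb3 averaged 25.1 ± 2.04 per kb after YAP siRNA and 11.8 ± 3.60 in the controls (SD, n = 3 each). Within each of the 6 libraries Erbb2 was above Egfr per kb, while Egfr had the higher normalized count before division by length. This order and the shares below rest on the exon lengths used, 10954 bases for Egfr and 5012 for Erbb2. The Egfr length includes a longest annotated 3′ UTR of 6303 bases, and how much of it these cells use was not tested. Erbb3 lay far below Erbb2 and Egfr in every library.

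As a share of the summed receptor level per kb, Erbb3 made up 4.86%, 5.18% and 4.62% in YAP siRNA replicates 1, 2 and 3. In control replicates 1, 2 and 3 its share was 3.60%, 2.18% and 1.75%. Erbb2 held 56.0 ± 3.34% after YAP siRNA and 53.0 ± 2.27% in the controls, and Egfr 39.1 ± 3.29% after YAP siRNA and 44.5 ± 2.45% in the controls (SD, n = 3 each). The small Erbb3 share was higher in every YAP siRNA library than in any control. The log2 ratio of Erbb3 to Egfr, in which the size factor cancels apart from the 1 added to each value, averaged −3.85 ± 0.13 after YAP siRNA and −5.06 ± 0.57 in the controls (SD, n = 3 each). It differed by 1.20, with an exact permutation p of 0.1, two-sided, the smallest these libraries allow, and an exact sign-flip p of 0.25 over the 3 replicate numbers, also the smallest.

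**Figure D3:**
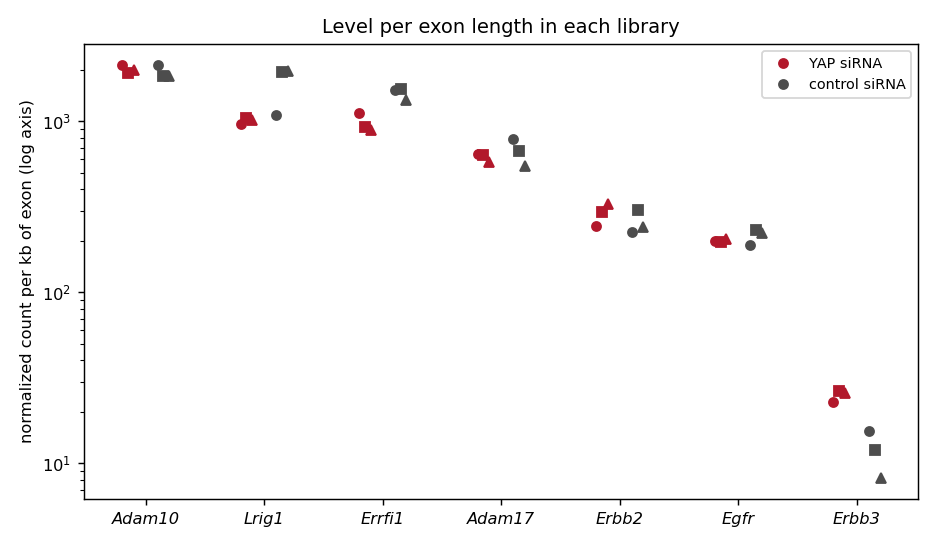
Normalized counts per kb of exon on a log axis for each library (circle, square and triangle for replicates 1, 2 and 3), YAP siRNA left of control siRNA for each gene. Adam10 is highest at about 2006 (YAP siRNA mean) and 1927 (control mean) per kb and Erbb3 lowest at 25.1 and 11.8.

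Lrig1, which encodes the transmembrane inhibitor, fell. It had 4774, 5186 and 5051 normalized counts in YAP siRNA replicates 1, 2 and 3, against 5408, 9539 and 9789 in control replicates 1, 2 and 3. The 3 YAP siRNA libraries were alike, while control replicate 1 lay near them and far from the other two controls. The mean was 5004 ± 210.4 after YAP siRNA and 8245 ± 2460.2 in the controls (SD, n = 3 each), or 60.7% of the control level. Its log2 fold change was −0.67 (SE 0.144, 95% interval −1.001 to −0.34 with the block), with limma adjusted p = 0.0176 with and 0.343 without the block. Within replicate 1 the log2 difference was −0.18, and within replicates 2 and 3 it was −0.88 and −0.95.

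The Lrig1 call changed with the libraries used. Without control replicate 1 it passed without the block (−0.95, limma adjusted p = 0.0301). Without replicate 1 of both groups it stood at −0.92 (limma adjusted p = 5.4e-26 in the blocked fit, whose variance then comes largely from other genes). It did not pass with the block without replicate 2 of both groups (−0.57, limma adjusted p = 0.146) or without a mean-variance trend (limma adjusted p = 0.141). DESeq2 without the block did not call it (adjusted p = 0.122). In GENCODE M21, 139 of its 4961 exon bases overlap Slc25a26 on the opposite strand, and whether the counting used strand is not given in the sources used here.

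Errfi1, which encodes the EGFR kinase inhibitor MIG6, fell and varied least between replicate numbers among the 3 called genes. It had 3587, 2989 and 2868 normalized counts in YAP siRNA replicates 1, 2 and 3, against 4941, 5004 and 4298 in control replicates 1, 2 and 3. Every YAP siRNA library was below every control library. The mean was 3148 ± 385 after YAP siRNA and 4748 ± 391 in the controls (SD, n = 3 each), or 66.3% of the control level. Its log2 fold change was −0.60 (SE 0.0932, 95% interval −0.81 to −0.38 with the block), with limma adjusted p = 0.00597 with and 0.213 without the block. Within replicates 1, 2 and 3 the log2 differences were −0.46, −0.74 and −0.58.

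DESeq2 called Errfi1 also without the block (adjusted p = 0.0124). With the block the call was lost without replicate 2 of both groups (−0.52, limma adjusted p = 0.0972) and without a mean-variance trend (limma adjusted p = 0.0908). For each of Erbb3, Lrig1 and Errfi1, the two-sided exact permutation p was 0.1, which is the smallest possible with 3 against 3. A change of at least the size of that in Lrig1 was seen in 13.9% of all genes tested, and of at least that in Errfi1 in 17.2%.

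**Figure D4:**
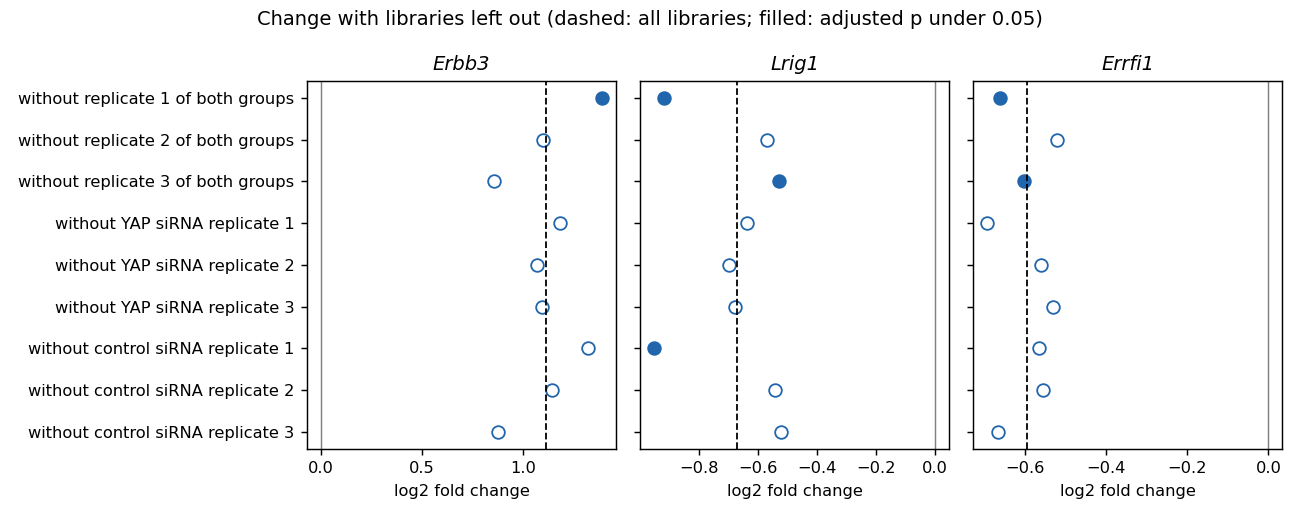
Log2 fold change of Erbb3, Lrig1 and Errfi1 with a replicate number left out of both groups (limma with the block, upper 3 rows) or 1 library left out (limma without the block, lower 6 rows). Filled points passed an adjusted p of 0.05 and the dashed line is the value with all libraries; Erbb3 ranges from 0.86 to 1.39, Lrig1 from −0.95 to −0.52 and Errfi1 from −0.69 to −0.52.

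The promoters of both inhibitor genes that fell are shown so that their composition can be compared. They are the 300-base windows around annotated starts from RefSeq (GRCm38.p6, another build than the mm9 of the counts), written 5′ to 3′ on the gene's strand. Capitals mark a match to the TEAD motif GGAATG, the site of YAP's DNA-binding partners, on either strand. The AP-1 motif TGANTCA, the ETS motif CCGGAAG and the SOX motif ACAATG, on either strand, were searched as well and had 0 matches in these 3 windows.
Errfi1, upstream start, chr4:150853546-150853845, plus strand: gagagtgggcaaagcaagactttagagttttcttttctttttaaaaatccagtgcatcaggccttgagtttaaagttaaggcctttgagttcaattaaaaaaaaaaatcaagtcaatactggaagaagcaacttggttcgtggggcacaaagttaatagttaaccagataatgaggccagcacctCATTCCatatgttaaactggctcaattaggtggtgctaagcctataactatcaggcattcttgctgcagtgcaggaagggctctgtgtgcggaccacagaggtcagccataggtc
Errfi1, downstream start, chr4:150854820-150855119, plus strand: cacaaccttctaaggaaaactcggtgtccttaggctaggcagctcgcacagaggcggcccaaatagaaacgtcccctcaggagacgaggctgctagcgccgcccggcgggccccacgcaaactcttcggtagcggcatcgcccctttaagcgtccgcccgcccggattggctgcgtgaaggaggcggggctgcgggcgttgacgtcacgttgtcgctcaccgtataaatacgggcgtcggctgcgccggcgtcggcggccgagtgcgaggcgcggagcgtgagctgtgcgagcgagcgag
Lrig1, chr6:94700096-94700395, minus strand: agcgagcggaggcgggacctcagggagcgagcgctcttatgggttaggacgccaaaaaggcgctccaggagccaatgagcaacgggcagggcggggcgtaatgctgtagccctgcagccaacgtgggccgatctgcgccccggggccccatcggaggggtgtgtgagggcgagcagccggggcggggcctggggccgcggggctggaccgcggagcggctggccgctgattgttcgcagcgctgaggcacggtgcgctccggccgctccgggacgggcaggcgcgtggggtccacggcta

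The upstream Errfi1 window was 42.0% G and C with 2 CpG dinucleotides, and its one TEAD match began at position −65 from the annotated start. The downstream Errfi1 window was 66.7% G and C with 41 CpG, and the Lrig1 window 73.0% with 35, beside medians of 52.7% and 7 over all 32851 windows. The gene-level counts do not show which Errfi1 start was used. Windows were at hand for 7 of the 8 genes, all but Erbb3, so its promoter was not searched. TEAD letters also occurred once in the Erbb2 window, in which the gene's values overlapped between groups, and in 14.7% of all windows. The AP-1 letters occurred in 7.81%, the ETS letters in 8.86% and the SOX letters in 12.6% of all windows. The ETS letters matched once each in the Egfr and Adam17 windows and the SOX letters once in the Adam17 window, with no 2 matches overlapping.

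One 3′ UTR feature was checked because an earlier analysis of these data had picked it out for lower values of the genes that carry it. The heptamer CTACATA was in the 3′ UTR of 10.7% of the tested genes with an annotated one. The median log2 fold change was −0.052 in carriers and 0.014 in the others, a difference partly fixed by how the heptamer was chosen. Of the 8 genes, Egfr alone carried it in its longest annotated 3′ UTR, once, shown here with the heptamer in capitals.
Egfr 3′ UTR: aaggactttgaCTACATAagcactgaagc

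Lrig1 and Errfi1, the members that fell, had 0 matches to this heptamer, and so did Erbb3.

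Adam10, the sheddase that releases EGF and betacellulin, was the most abundant of the 8 genes per kb of exon and differed least. It had 9808, 8758 and 9081 normalized counts in YAP siRNA replicates 1, 2 and 3, against 9791, 8391 and 8365 in control replicates 1, 2 and 3. Replicate 1 was the highest in both groups, and the groups overlapped. The log2 fold change was 0.061, and the blocked 95% interval ran from −0.12 to 0.25 (limma adjusted p = 0.637 with and 0.933 without the block). A change as large as the −0.60 of Errfi1 thus lies outside its interval.

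Adam17, the sheddase of TGF-alpha, amphiregulin and HB-EGF, had 2912, 2866 and 2601 normalized counts in YAP siRNA replicates 1, 2 and 3. Its control values were 3539, 3003 and 2447 in replicates 1, 2 and 3, which spread wider than, and enclosed, those after YAP siRNA. The log2 fold change was −0.087, and the blocked 95% interval ran from −0.32 to 0.15 (limma adjusted p = 0.585 with and 0.923 without the block). The sign for Adam17 turned without control replicate 1 (0.041) or without replicate 1 of both groups (0.010), but not without YAP siRNA replicate 1 (−0.12). In GENCODE M21, 311 of its 4508 exon bases overlap Iah1 on the opposite strand, so its counts carry that uncertainty.

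By mean level per kb in the controls, the order was Adam10 (1927), Lrig1 (1662), Errfi1 (1468), Adam17 (665), Erbb2 (256), Egfr (213) and Erbb3 (11.8). Lrig1 was above Errfi1 in control replicates 2 and 3 and below it in control replicate 1. The control ranges of Erbb2 and Egfr overlapped, although Erbb2 was above Egfr within each of the 3 control libraries. After YAP siRNA the means were 2006 for Adam10, 1009 for Lrig1, 973 for Errfi1, 619.5 for Adam17, 289 for Erbb2, 199.9 for Egfr and 25.1 for Erbb3. Lrig1 and Errfi1 changed places after YAP siRNA when lengths of the longest transcript were used (1011 for Lrig1 and 1034 for Errfi1).

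Genes with the most similar profile over the 6 libraries were taken by Pearson correlation of log2(value + 1), as a measure of likeness only, among genes with a mean of at least 50. Erbb3 was most like Thnsl1 (r = 0.997) and the spindle gene Aspm (r = 0.994). Aspm had 5131, 5297 and 5027 normalized counts in YAP siRNA replicates 1, 2 and 3, against 3690.4, 3024 and 2267 in control replicates 1, 2 and 3, the same order of controls as Erbb3. Lrig1 was most like Bmp1, a procollagen-processing proteinase gene, and Rcan2 (r = 0.999 and 0.998), which also had low values in control replicate 1. Errfi1 was most like Slc37a4 and the lipid kinase gene Pip5k1a (r = 0.997 and 0.996). For Egfr these were Arhgap4 and the neuregulin gene Nrg2 (r = 0.986 and 0.976), for Erbb2 Fv1 and Atp9b (0.990 and 0.979), for Adam10 Osgep and Rpp14 (0.999 and 0.997), and for Adam17 Acad8 and Abcf3 (0.991 and 0.989). These libraries share the split of replicate 1 from the others, which can enter any of these correlations. The difference between the siRNA groups can enter them too. In Erbb3, Thnsl1 and Aspm, every YAP siRNA library was above every control library.

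Of the lists of related genes, that of the receptors' ligands held the most genes that fell. Of 11 EGF family ligand genes, 8 passed the filter, of which 0 were higher, 6 lower and 2 not past the threshold with the block, beside 8.32% of all genes higher and 8.96% lower. Their median log2 fold change was −0.82. Hbegf averaged 1169 ± 220.4 normalized counts after YAP siRNA and 2660.1 ± 181 in the controls, and Btc 93.2 ± 17.5 after YAP siRNA and 292 ± 25 in the controls (SD, n = 3 each). Areg averaged 22.8 ± 9.82 after YAP siRNA and 125 ± 37.3 in the controls, and Ereg, the epiregulin gene, 1232 ± 358 after YAP siRNA and 2249 ± 245 in the controls (SD, n = 3 each). Nrg1, the main ERBB3 ligand gene, and Tgfa, both named after their values were seen, fell as well, by 0.56 and 0.74 on the log2 scale. When replicate 2 of both groups was dropped, Hbegf and Btc kept their calls and the other 4 lost them; without replicate 3, Tgfa and Nrg1 lost theirs.

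Other negative regulators of ERBB receptors were called at a share near that of all genes. Of 24 tested, 1 was higher and 3 were lower with the block, beside 17.3% of all genes called in either direction, with a median log2 fold change of −0.054. Cd2ap, an endocytic adaptor gene, averaged 2909 ± 1376 normalized counts after YAP siRNA and 1915 ± 1471 in the controls (SD, n = 3 each), with replicate 1 highest in both groups. The receptor phosphatase gene Ptprj averaged 678 ± 25.8 after YAP siRNA and 1436 ± 650.2 in the controls, Dok1 747 ± 139.6 after YAP siRNA and 1254 ± 443 in the controls, and the ubiquitin ligase gene Nedd4l 598 ± 72.6 after YAP siRNA and 902 ± 239 in the controls (SD, n = 3 each). Lrig2 and Lrig3, the paralogues of Lrig1, had log2 fold changes of 0.25 and −0.13 (limma adjusted p = 0.174 and 0.549 with the block). The ubiquitin ligase genes Cbl, which targets EGFR, and Rnf41, which targets ERBB3, were at −0.32 and −0.083 (limma adjusted p = 0.0856 and 0.549 with the block). These 4 genes were named after their values were seen. All 4 calls were lost without replicate 2 of both groups, and Nedd4l also without replicate 3.

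**Figure D5:**
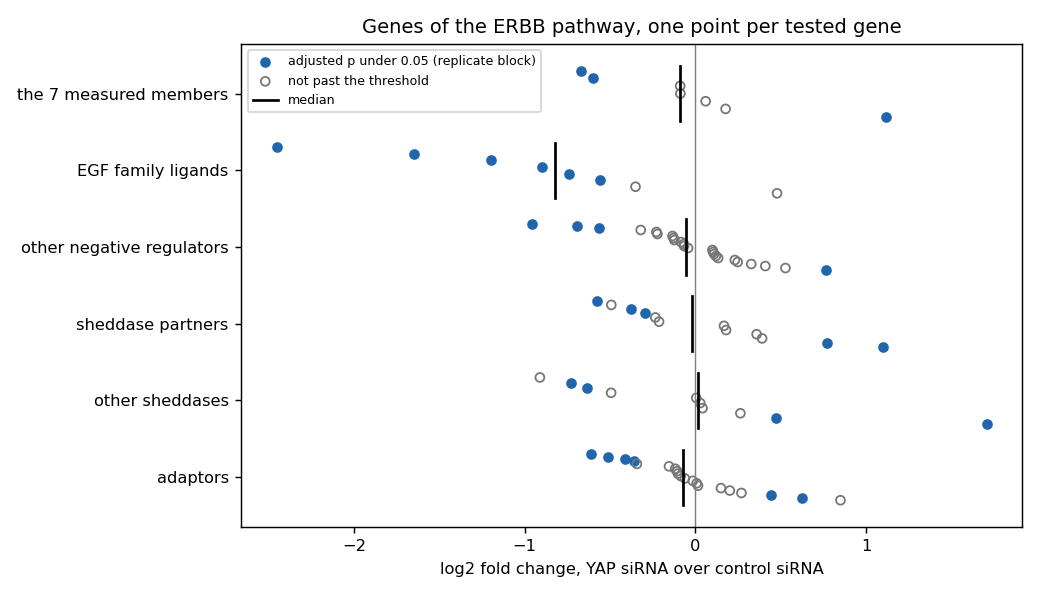
Log2 fold changes of the 7 measured genes and of the tested genes in 5 lists, 1 point per gene, filled where limma with the block gave an adjusted p under 0.05; black bars are medians. The ligand list has its median at −0.82, and the other lists have theirs between −0.073 and 0.017.

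Genes that work with the sheddases went both ways. Of 16 sheddase partner genes 12 were tested, of which 2 were higher and 3 lower with the block. These counts stood beside 8.32% of all genes higher and 8.96% lower. The median log2 fold change of the 12 was −0.022. Timp3, which encodes an inhibitor of ADAM17, averaged 31724 ± 3934 normalized counts after YAP siRNA and 18505 ± 856 in the controls (SD, n = 3 each). Tetraspanins that escort ADAM10 differed in direction. Tspan14 averaged 3258 ± 294 after YAP siRNA and 1552 ± 432 in the controls, Tspan5 2508 ± 252 after YAP siRNA and 3249 ± 209.9 in the controls, and Tspan15 1279 ± 91.5 after YAP siRNA and 1967 ± 569.8 in the controls (SD, n = 3 each). The iRhom gene Rhbdf1, whose product carries ADAM17 to the cell surface, did not pass (log2 fold change −0.21, adjusted p = 0.137 by limma with the block), and Rhbdf2, the other iRhom gene, did not pass the filter; both were named after their values were seen. Without replicate 2 of both groups Timp3 and Tspan14 kept their calls and the other 3 lost theirs, and without replicate 3 Tspan5 was one of 2 lost.

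Among other sheddases and relatives of the ADAM family, 10 of 11 were tested, with a median log2 fold change of 0.017. With the block 2 were higher and 2 lower, beside 8.32% of all genes higher and 8.96% lower. Adam12 had 222, 232 and 226 normalized counts in YAP siRNA replicates 1, 2 and 3, against 56.1, 81.8 and 70.5 in control replicates 1, 2 and 3, and its log2 fold change of 1.71 was the largest rise in the lists. Adam9 averaged 7651 ± 114 after YAP siRNA and 5516 ± 155 in the controls, while the beta-secretase gene Bace1 averaged 1891 ± 42.3 after YAP siRNA and 3161 ± 539 in the controls and Adam15 1823 ± 323 after YAP siRNA and 2957 ± 1078 in the controls (SD, n = 3 each). Adam10 and Adam17 thus stood beside relatives that were called in both directions. Without replicate 2 of both groups, Adam12 alone of the 4 kept its call. In a short list of genes that share sequence or domains with members, 5 were tested, with a median log2 fold change of 0.043. With the block 1 was higher and 0 were lower, beside the same 8.32% and 8.96% of all genes. The higher gene was Adam9 again, whose call was lost without replicate 2 of both groups.

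Adaptor genes that carry the signal from the receptors were the last group. Of 21 adaptors, 20 were tested, of which 2 were higher and 4 lower with the block, with a median log2 fold change of −0.073. The adaptor gene Shc1 averaged 2314 ± 753 normalized counts after YAP siRNA and 1600.2 ± 892 in the controls, and Gab1 1793 ± 132 after YAP siRNA and 1317 ± 67.0 in the controls (SD, n = 3 each). The kinase gene Src averaged 2760.4 ± 97.1 after YAP siRNA and 3544 ± 124 in the controls, and the PI3-kinase subunit gene Pik3r2 2495 ± 785 after YAP siRNA and 3614 ± 1367 in the controls (SD, n = 3 each). None of the 6 calls was kept without replicate 2 of both groups, and without replicate 3 Shc1 alone was. Over all lists together, 7 were higher and 18 lower of 75 tested with the block, beside 8.32% of all genes higher and 8.96% lower, so that the share of higher calls was near that of all genes. All 25 of these were also called without replicate 1 of both groups, 5 without replicate 2 and 15 without replicate 3. Those fits called 5596, 300 and 1128 of the 12820 genes, against 2216 with all libraries. Because the fit without replicate 1 called so many more genes, keeping all 25 there says little about them.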

How the data were processed

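Per the labels' protocols, poly(A) RNA of SC4 cells was fragmented, ligated to directional adapters and amplified, and barcoded paired-end libraries were sequenced. The submitters' processing notes name mm9 as the build, with DESeq 1.14.0, HTSeq 0.6.1 and TopHat2 2.0.9; which annotation, strand setting and filters were used, and how reads shared between genes were handled, is not given in the sources used here. The authors deposited a signal: counts of each gene scaled by a size factor for each library. Every value above 0 was a whole multiple of 1 step within 0.01 reads (100% in each library), so reads were recovered; median-ratio size factors recomputed from them equalled those deposited (ratio 1). In YAP siRNA replicate 2 the step, 1.01 normalized counts, was too close to 1 for an independent check of the recovery to decide, so the DESeq2 and edgeR values, which use that library, rest on its whole multiples alone. Libraries within a group differed by more than sampling noise (chi-square per degree of freedom between 8.22 and 293). The labels do not name separate cultures, so p-values reflect the spread of these libraries alone, which may be technical.

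limma 3.58.1 (R 4.3.3) tested log2(value + 1) with a mean-variance trend, two-sided, with Benjamini-Hochberg adjustment over 12820 genes whose mean was 10 or more, without a covariate and, beside it, with the replicate number as a block. Fold changes on this scale understate changes of low genes. Deviations from the group means correlated at 0.788, 0.705 and 0.532 for same-numbered replicates 1, 2 and 3, each over 0.1, so same-numbered libraries were treated as pairs. This comes from the data, not a label: YAP siRNA replicate 3 correlated at 0.552 with control replicate 2, and YAP siRNA replicate 2 at 0.516 with control replicate 3, so the numbers set replicate 1 apart but do not tell replicates 2 and 3 from each other. Alternatives were DESeq2 1.42.0 and edgeR 4.0.16 run on those reads, other pseudocounts, filters and scalings, and left-out libraries. The limma fits were checked on simulated data. The members, lists and motifs were chosen with earlier results of these data known. Named genes were the members, up to 4 called genes per list by the smallest p, and the 2 genes most like each member. Some Schwann cell markers are not reported here.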

Additional observations from a re-analysis of the deposited data

How the results depend on the processing

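Without the block, limma called 0 genes, 0 members and 0 list genes under other pseudocounts (0.5, 10), filters, scalings and without a trend, and edgeR called 0 of each; DESeq2 called 722 genes, 2 members and 12 list genes. With the replicate block limma called 2216 genes, 3 members and 25 list genes. With the block these counts were 2235, 3 and 25 at pseudocount 10, 2152, 3 and 25 at a mean of at least 50, 2252, 3 and 24 with one total per library, 2349, 3 and 25 with quantiles, 2479, 3 and 28 with edgeR and 2490, 3 and 28 with DESeq2. Without a trend they were 30, 0 and 0 with the block. Leaving out 1 library without the block gave between 0 and 497 genes, between 0 and 1 members and between 0 and 9 list genes, with 8 genes without YAP siRNA replicate 1 and the upper values without control replicate 1. With the block, leaving out replicate 1, 2 or 3 of both groups gave 5596, 300 and 1128 genes, 3, 0 and 2 members, and 45, 5 and 15 list genes; these fits have few degrees of freedom and lean on variances of other genes. The causes were not tested. Directions of Egfr, Erbb2, Erbb3, Lrig1, Errfi1 and Adam10 held in all 26 other settings run. Changing only the block, filter or trend of limma with all libraries left the fold change as it was. The direction could not turn in those settings. With libraries left out, Egfr lay between −0.18 (without replicate 1 of both groups) and −0.011 (without replicate 2 of both), Erbb2 between 0.038 (without replicate 3 of both) and 0.31 (without control replicate 2), and Adam10 between 0.015 (without YAP siRNA replicate 1) and 0.14 (without control replicate 1), and none passed. Adam17 ranged from −0.22 without control replicate 3, but turned to 0.041 without control replicate 1 and to 0.010 without replicate 1 of both groups, and did not pass in any. In limma with a mean-variance trend and in edgeR, the block changed the call of Erbb3, Lrig1 and Errfi1 and of no other member. In DESeq2 it changed the call of Lrig1 alone. The median log2 fold change of all genes was 0.0094, and 0.037 with one total per library and 0.020 with quantiles. The difference in the Erbb3 to Egfr log2 ratio kept its sign under every alternative run. Counting depth limits Erbb3 most, and Erbb4 was not detectable at this depth.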
